A study of Mus musculus with 6 samples.

Results

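The glucocorticoid receptor and its response genes were followed in lungs of Zpbp2 KO and WT mice at ZT10, late in the light phase. The 10 genes were chosen by symbol: the receptors Nr3c1 and Nr3c2, the enzyme gene Hsd11b1, the co-chaperone gene Fkbp5, and the response genes Tsc22d3, Sgk1, Zbtb16, Klf9, Hif3a and Cdkn1a. They are 10 of the 47069 genes in the count table, and all 10 passed the filter on low counts that left 17037 genes for testing. Each group held 3 adult mice with 1 library per mouse, WT4 to WT6 from C57BL/6J mice and KO4 to KO6 from Zpbp2-/- mice on that background that lack exons 1 to 3 of Zpbp2 (strain B6.129S7-Zpbp2tmZuk/Mmjax). The deletion is not described as limited to any tissue, and the WT controls came from the colony that housed the KO mice without being described as littermates. The question was whether the glucocorticoid arm of the lung transcriptome differed between the genotypes at this hour.

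Glucocorticoids such as corticosterone, the main one in mice, enter cells and bind the glucocorticoid receptor, which waits in the cytoplasm in a complex with Hsp90 and its co-chaperones. The bound receptor moves to the nucleus, where it switches genes on at glucocorticoid response elements (GREs) and restrains many inflammatory genes. Corticosterone follows the daily clock and rises toward the active phase, which in mice is the night, and the lung responds to it with effects on surfactant, sodium transport and inflammation. Corticosterone was not measured in these data, and Fkbp5, Tsc22d3, Zbtb16 and Klf9 are genes widely read as a record of recent hormone action.

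The libraries held 19981428 to 46796908 counts each. Levels are given as CPM, counts scaled to the effective size of each library, and the detection limit of 3 counts equals 0.0629 to 0.148 CPM, which covers counting error only. Zpbp2 had 1, 2 and 2 counts in the WT mice and 0 in each KO mouse, all under this limit, so the loss could not be seen at this depth. All 6 libraries carried Xist at 715 to 994 CPM and Y-linked genes at no more than 0.189 CPM, the pattern of female mice. Lung identity was clear in every mouse, with summed levels of 17476 to 24212 CPM for 8 type 2 alveolar genes, 2913 to 3435 CPM for 6 type 1 alveolar genes and 3249 to 3919 CPM for 7 endothelial genes. Blood cell genes differed between the groups. By the test defined below, 6 of 7 monocyte genes and 3 of 6 neutrophil genes were higher in KO mice, beside 3.72% of all tested genes. The summed level of 7 B cell genes was 119 to 132 CPM in WT mice against 225, 966 and 266 CPM in KO4, KO5 and KO6. Because whole lungs were sequenced, fewer cells of a type and less RNA per cell cannot be told apart.

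KO was compared with WT by the quasi-likelihood (QL) test of edgeR over all 17037 genes, with p-values adjusted by the method of Benjamini and Hochberg (BH), and a gene was called when its BH-adjusted p was at most 0.05. Of the 10 genes, 3 were called lower in KO mice (Fkbp5, Sgk1 and Cdkn1a) and 1 was called higher (Nr3c2), where the same test called 2.67% of all tested genes lower, 3.72% higher and 6.39% in either direction. The median log2 fold change of the 10 genes was -0.30, beside 0.00 over all genes tested. In 5 of the 10 genes every KO value lay below every WT value, an arrangement found in 15.6% of tested genes, and in Nr3c2 every KO value lay above. Without regard to direction, 32.6% of tested genes had groups that did not overlap. None of the 10 passed the stricter rule of the study, which adds an absolute log2 fold change of at least 1.5. That rule was passed by 0.64% of tested genes. In the edgeR QL test 7 of the 10 had an unadjusted p under 0.05, beside 4347 of the 17037 tested genes. Of the 10 genes, 3 were called lower and 1 higher without KO4 or without KO5, and 2 lower and 1 higher without WT4. Without WT5, without WT6 or without KO6, 0 were called in either direction. Over all genes, the calls higher and lower under the last 3 omissions were 0 and 1 without WT5, 25 and 38 without WT6, and 74 and 43 without KO6. Under the other omissions they were 797 and 481 without KO4, 595 and 338 without KO5, and 144 and 110 without WT4.

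**Figure D1:**
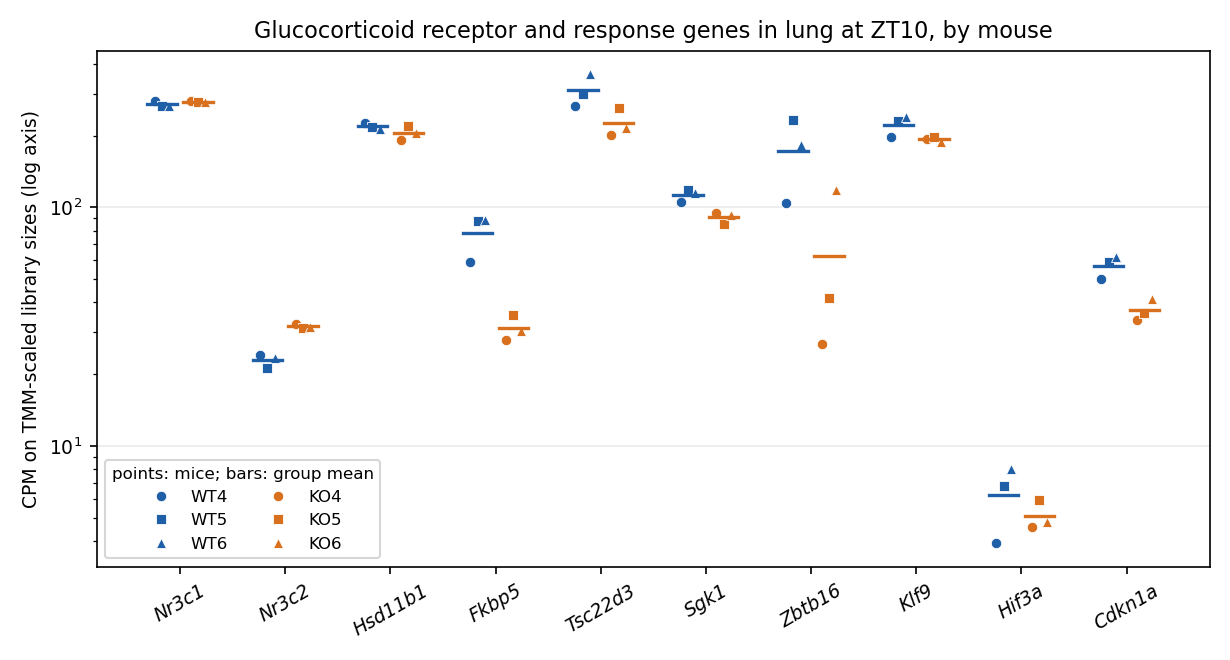
Level of each gene in each mouse, in CPM on a log axis, with WT mice in blue, KO mice in orange, the symbol giving the number of the mouse and the bar the mean of 3 mice. Fkbp5 and Cdkn1a lay lower in every KO mouse than in any WT mouse, Nr3c2 lay higher, Nr3c1 coincided, and Zbtb16 ranged from 26.7 to 232 CPM.

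Nr3c1 encodes the glucocorticoid receptor itself (ENSMUSG00000024431, chromosome 18 from 39410545 to 39519421, minus strand, GRCm38). Its level was 281, 266 and 265 CPM in WT4, WT5 and WT6 and 279, 278 and 277 CPM in KO4, KO5 and KO6. The groups overlapped, and the mice differed so little that 97.2% of tested genes had a larger spread within the groups on the log2 scale. The log2 fold change was 0.04 (SE 0.0488, BH-adjusted p = 0.673, edgeR QL test), and it stayed between 0.02 and 0.06 when any 1 mouse was left out.  Nr3c2 (ENSMUSG00000031618, chromosome 8 from 76899442 to 77245012, plus strand) encodes the mineralocorticoid receptor, a close relative that binds corticosterone as well as aldosterone. It stood at 23.95, 21.2 and 23.3 CPM in WT4, WT5 and WT6 and at 32.5, 31.1 and 31.5 CPM in KO4, KO5 and KO6. All KO mice were above all WT mice, and the KO mean was 1.39 times the WT mean. With a log2 fold change of 0.47 (SE 0.0675), Nr3c2 had a BH-adjusted p of 0.0186 in the edgeR QL test, and this p rose above the threshold without WT5 (0.0948), WT6 (0.0717) or KO6 (0.0633). Exons of Nr3c2 share 247 bp with Gm10649 on the other strand, a gene with 1 to 10 counts per mouse here.

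Within each mouse, Nr3c1 had 11.7, 12.6 and 11.4 times the counts of Nr3c2 in WT4, WT5 and WT6 and 8.60, 8.94 and 8.78 times in KO4, KO5 and KO6. This ratio does not depend on how library sizes are scaled. On the log2 scale it was 3.57 ± 0.0724 (SD, n = 3) in WT mice and 3.13 ± 0.0274 (SD, n = 3) in KO mice, a difference of -0.44 that stayed between -0.47 and -0.40 with any 1 mouse left out. The two-sided exact permutation test gave p = 0.1, the smallest that 3 mice against 3 allow. The highest KO ratio was below the lowest WT ratio.

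Hsd11b1 (ENSMUSG00000016194, chromosome 1 from 193221634 to 193264075, minus strand) encodes the enzyme that regenerates active corticosterone from its inert form inside cells. It measured 226, 217 and 214 CPM in WT4, WT5 and WT6 and 191, 219.6 and 206 CPM in KO4, KO5 and KO6. The groups overlapped through KO5, and the log2 fold change was -0.09 (SE 0.0640, BH-adjusted p = 0.417, edgeR QL test). Hsd11b2, which encodes the opposing enzyme that inactivates corticosterone, had only 22 to 73 counts per mouse and a log2 fold change of -0.27 (SE 0.206, BH-adjusted p = 0.457, edgeR QL test). The log2 ratio of Hsd11b1 to Hsd11b2 counts was 7.12 ± 0.174 (SD, n = 3) in WT and 7.32 ± 0.154 (SD, n = 3) in KO mice (two-sided exact permutation test, p = 0.2). Of 11 genes of steroid supply and handling fixed as a list, which includes Hsd11b1, 8 were tested and edgeR called 0, with 1 (Abcb1a, a steroid efflux pump gene) at an unadjusted p under 0.05 and 1 each called by DESeq2 and by edgeR's exact test. H6pd, whose product feeds cofactor to the Hsd11b1 enzyme, stood at 275 to 306 CPM in WT mice and 271 to 292 CPM in KO mice.

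Fkbp5 (ENSMUSG00000024222, chromosome 17 from 28399094 to 28517527, minus strand) encodes a co-chaperone that lowers the affinity of the receptor for hormone and is itself induced by the receptor, which closes a feedback loop. It had the lowest adjusted p of the 10 genes. Its level was 59.3, 87.6 and 88.2 CPM in WT4, WT5 and WT6 and 27.7, 35.4 and 30.4 CPM in KO4, KO5 and KO6. The groups were well apart, since the highest KO mouse was below the lowest WT mouse, and the KO mean was 0.397 of the WT mean. The log2 fold change of -1.33 (SE 0.167) had a BH-adjusted p of 0.0142 in the edgeR QL test, and only 35 of 17037 tested genes, itself included, had a log2 fold change as low or lower. Leaving out any 1 mouse kept the log2 fold change between -1.49 and -1.24, while the BH-adjusted p of the edgeR QL test rose to 0.0802 without WT5, 0.0637 without WT6 and 0.0564 without KO6. Its relative Fkbp4, whose product replaces that of Fkbp5 in the complex when hormone binds, was also lower (log2 fold change -0.88, SE 0.0715, BH-adjusted p = 0.00653, edgeR QL test). In counts, Fkbp5 amounted to 0.239, 0.338 and 0.303 of Fkbp4 in WT4, WT5 and WT6 and to 0.190, 0.254 and 0.205 in KO4, KO5 and KO6. The log2 ratio of the pair was -1.78 ± 0.255 (SD, n = 3) in WT and -2.22 ± 0.220 (SD, n = 3) in KO mice, with overlapping values and p = 0.2 in the two-sided exact permutation test.

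The promoter of Fkbp5 is shown because Fkbp5 had the largest log2 fold change of the called genes. The sequence is taken from RefSeq for GRCm38.p6 and gives the 250 bases before the RefSeq start, chr17:28486150-28486399 on the minus strand, which lie inside the annotated gene and hold no annotated exon bases. Motifs were searched on both strands, namely the GRE arm AGAACA or its reverse complement TGTTCT, the full palindromic GRE with both arms spaced by 3 bases, and the E-box CACGTG, which the clock factors CLOCK and BMAL1 can bind. Capitals mark the matches, here 1 E-box that begins 169 bases before the start.
Fkbp5 promoter: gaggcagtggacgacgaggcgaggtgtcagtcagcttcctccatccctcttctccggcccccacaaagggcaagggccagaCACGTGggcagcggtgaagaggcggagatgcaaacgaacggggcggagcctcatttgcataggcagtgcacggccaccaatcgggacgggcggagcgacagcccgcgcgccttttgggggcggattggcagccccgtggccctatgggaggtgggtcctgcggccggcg
No GRE arm lies in this window, and nothing about the receptor follows from that, since response elements are often far from the start. Over all 32851 promoter windows of 300 bases in the RefSeq table, 19% held a GRE arm and 7.15% held this E-box.

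Sgk1 (ENSMUSG00000019970, chromosome 10 from 21882184 to 21999903, plus strand) encodes a kinase that keeps epithelial sodium channels at the cell surface and answers to both corticosteroid receptors. It measured 105, 118 and 115 CPM in WT4, WT5 and WT6 and 94.4, 85.6 and 93.1 CPM in KO4, KO5 and KO6. Every KO mouse was below every WT mouse, and the KO mean was 0.808 of the WT mean. The log2 fold change was -0.31 (SE 0.0637, BH-adjusted p = 0.0390, edgeR QL test), the least secure of the calls, since the BH-adjusted p of the same test was 0.0459 without KO4 but 0.0631 without WT4, 0.157 without WT5, 0.123 without WT6, 0.0622 without KO5 and 0.0938 without KO6.

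RefSeq lists 6 starts for Sgk1, and the 250 bases before one of them, chr10:21993640-21993889 on the plus strand of GRCm38.p6, are shown because they hold the full palindromic GRE. Only 3 of the 32851 promoter windows (0.00913%) hold this motif. It reads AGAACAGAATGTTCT and begins 189 bases before the start at 21993890, outside annotated exons. Capitals mark the GRE arms and an E-box, and the E-box shares its last letters with a further GRE arm.
Sgk1 promoter: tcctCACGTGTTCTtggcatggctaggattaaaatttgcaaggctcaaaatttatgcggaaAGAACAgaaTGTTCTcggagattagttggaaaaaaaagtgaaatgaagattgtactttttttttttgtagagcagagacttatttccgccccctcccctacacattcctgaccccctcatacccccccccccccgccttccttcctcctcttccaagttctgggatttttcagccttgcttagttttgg
The deposited counts are summed over the starts of Sgk1 and do not say which one was in use. Promoter windows were found for 8 of the 10 genes, and besides Sgk1 the only GRE arm was in 1 of 3 windows of Tsc22d3, 185 bases before its start.

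Cdkn1a (ENSMUSG00000023067, chromosome 17 from 29090976 to 29100727, plus strand) encodes the cell cycle inhibitor p21, which responds to glucocorticoids and to p53. Its level was 49.8, 59.2 and 62.0 CPM in WT4, WT5 and WT6 and 33.7, 36.1 and 41.1 CPM in KO4, KO5 and KO6. The groups did not overlap, with the KO mean at 0.649 of the WT mean. Its log2 fold change of -0.62 (SE 0.104) had a BH-adjusted p of 0.0249 in the edgeR QL test, which rose to 0.118 without WT5, 0.0842 without WT6 and 0.0534 without KO6. Exons of Cdkn1a share 273 bp with a transcript on the other strand, and the strand setting of the counting is not given in the sources used here.

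Tsc22d3 and Klf9 had every KO mouse below every WT mouse without passing the test. Tsc22d3 (ENSMUSG00000031431, chromosome X from 140539528 to 140600659, minus strand) encodes GILZ, a mediator of the anti-inflammatory action of glucocorticoids. It measured 267, 300.4 and 362 CPM in WT4, WT5 and WT6 and 200.4, 261 and 215 CPM in KO4, KO5 and KO6. KO5 came close to WT4, and the log2 fold change of -0.46 (SE 0.136) had a BH-adjusted p of 0.0916 in the edgeR QL test. The BH-adjusted p was 0.0489 without KO5 in the edgeR QL test, 0.00612 in DESeq2 and 0.0307 in edgeR's exact test. Klf9 (ENSMUSG00000033863, chromosome 19 from 23141226 to 23168134, plus strand), a transcription factor gene under both hormone and clock control, measured 198, 230.4 and 239 CPM in WT4, WT5 and WT6 and 194, 197 and 188 CPM in KO4, KO5 and KO6. Its separation was narrow, with WT4 just above KO5, and the log2 fold change of -0.21 (SE 0.0775) had a BH-adjusted p of 0.154 in the edgeR QL test.

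Zbtb16 (ENSMUSG00000066687, chromosome 9 from 48654297 to 48836222, minus strand) encodes the zinc finger repressor PLZF, a strongly inducible target of the receptor in many tissues. It measured 104, 232 and 183 CPM in WT4, WT5 and WT6 and 26.7, 41.8 and 119 CPM in KO4, KO5 and KO6. KO4 and KO5 were far below the WT mice, whereas KO6 was above WT4. The log2 fold change of -1.48 was the lowest of the 10 genes, but its SE was 0.548 and its BH-adjusted p 0.149 in the edgeR QL test. Only 2.18% of tested genes varied more between mice of a group, with a pooled SD of 0.886 on the log2 scale against a median of 0.128 over all genes tested. Without KO6 the log2 fold change was -2.33, the only omission that moved it by more than 1.5 times, with a BH-adjusted p of 0.0597 in the edgeR QL test.

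Genes of smooth muscle and of atrial muscle, which reaches into the lung along the pulmonary veins, also varied from mouse to mouse. The summed level of 5 smooth muscle genes was 559, 835 and 685 CPM in WT4, WT5 and WT6 and 554, 439 and 571 CPM in KO4, KO5 and KO6. WT5 and WT6 were highest and KO6 led the KO mice, as for Zbtb16. The summed level of 7 atrial genes was 577, 1023 and 387 CPM in WT4, WT5 and WT6 and 223, 136 and 1182 CPM in KO4, KO5 and KO6, with the same leader in each group. The rest of the order differed from that of Zbtb16. KO4 was above KO5 in each sum, and WT6 was the lowest WT mouse in the atrial sum. The part of these cells in the level of Zbtb16 was not tested.

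Hif3a (ENSMUSG00000004328, chromosome 7 from 17031507 to 17062427, minus strand) encodes a member of the hypoxia-inducible factor family that glucocorticoids also induce. With 93 to 283 counts per mouse it was the scarcest of the 10 genes. It measured 3.90, 6.76 and 7.99 CPM in WT4, WT5 and WT6 and 4.55, 5.94 and 4.79 CPM in KO4, KO5 and KO6. The lowest value of all belonged to WT4, so the groups overlapped, and the log2 fold change was -0.28 (SE 0.265, BH-adjusted p = 0.555, edgeR QL test).

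**Figure D2:**
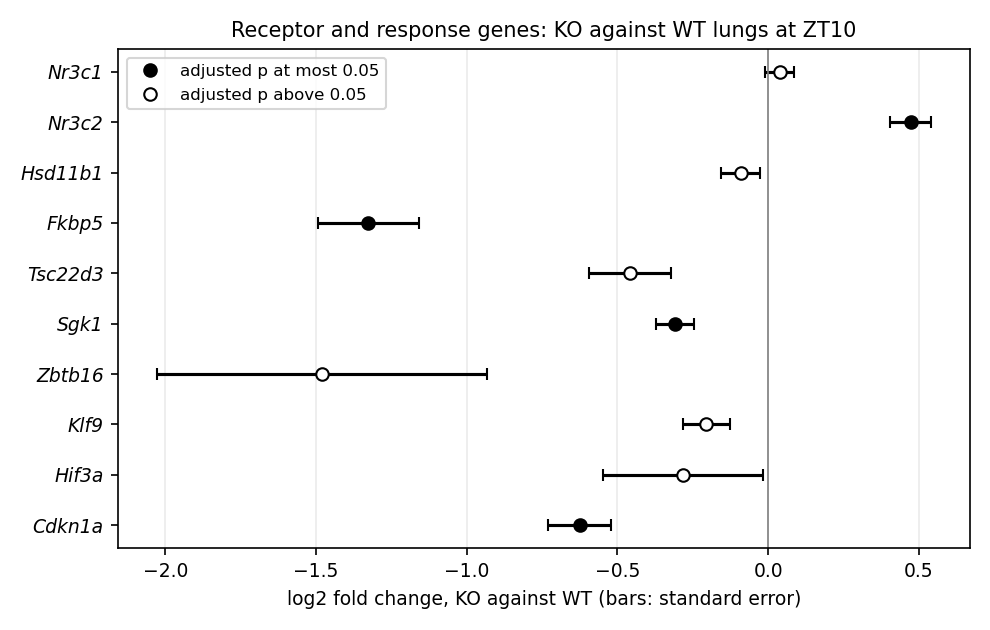
Log2 fold change of KO against WT for each gene, with bars for 1 standard error and filled points for a BH-adjusted p of at most 0.05 in the edgeR QL test. Fkbp5, Sgk1 and Cdkn1a are filled below 0 and Nr3c2 above 0, while Zbtb16 has the lowest estimate and the longest bar.

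Per kilobase of exon, which allows genes to be compared with each other, the WT levels ran from Tsc22d3 at 71.4 ± 11.1 CPM per kb (SD, n = 3) through Hsd11b1 (51.5 ± 1.53), Klf9 (46.2 ± 4.56), Nr3c1 (35.2 ± 1.14), Zbtb16 (32.8 ± 12.2), Sgk1 (23.0 ± 1.34), Cdkn1a (16.0 ± 1.80), Fkbp5 (8.28 ± 1.75) and Nr3c2 (3.52 ± 0.224) to Hif3a (0.926 ± 0.312). Neighbours in this order did not overlap between WT mice, except that the range of Zbtb16 overlapped those of Nr3c1 and Sgk1. In KO mice Tsc22d3 (51.9 ± 7.27 CPM per kb) and Hsd11b1 (48.3 ± 3.37) overlapped, as did Zbtb16 (11.8 ± 9.34) with Sgk1 (18.6 ± 0.977) and Cdkn1a (10.4 ± 1.06). The places of Fkbp5 and Nr3c2 were exchanged: Fkbp5 lay at 6.26 to 9.32 CPM per kb in WT mice, above Nr3c2 at 3.27 to 3.70, and at 2.92 to 3.74 in KO mice, below Nr3c2 at 4.81 to 5.01. Exon lengths were taken over all annotated transcripts, so levels per kb of genes with long rare exons are too low.

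The mice of a group also differed in Fkbp5 and the 6 response genes. Averaged over these 7 genes, the deviation from the WT mean was -0.33, 0.15 and 0.18 on the log2 CPM scale in WT4, WT5 and WT6 and -0.90, -0.65 and -0.52 in KO4, KO5 and KO6, given without a test because the genes were chosen with results known. WT4 was the lowest WT mouse in 7 of the 7 genes, whereas it was lowest in 32.5% of all genes tested. KO4 was the lowest KO mouse in 5 of the 7 genes, beside 36.8% of all genes tested. KO5, the deepest library and the one with the most B cell RNA, was lowest in Sgk1 alone, and its deviation of -1.12 for Fkbp5 was the smallest among KO mice.

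**Figure D3:**
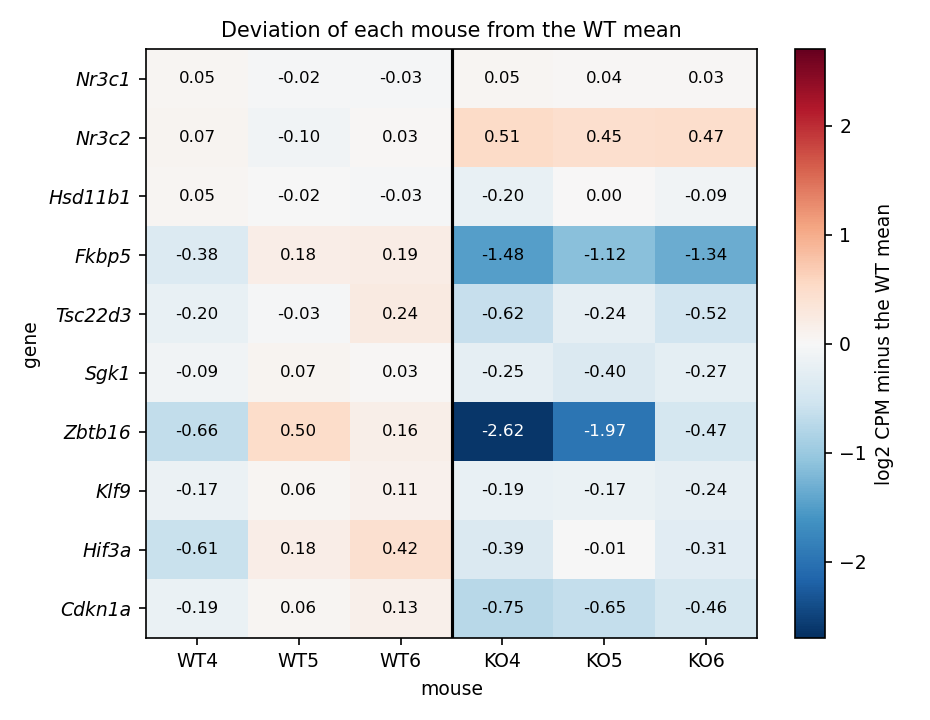
Deviation of each mouse (columns) from the WT mean in log2 CPM for each gene (rows), with blue below and red above the WT mean. The columns of the KO mice are blue for Fkbp5, Tsc22d3, Sgk1, Zbtb16, Klf9 and Cdkn1a. Hif3a is at -0.39, -0.006 and -0.31 in KO4, KO5 and KO6. The column of WT4 is blue for all of these genes, and Nr3c2 is red in the KO mice.

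The chaperones and partners that hold the receptor ready for hormone formed the pathway list with the largest share of calls. Of 16 genes, 11 were called lower in KO mice and 0 higher, and 15 of the 16 had every KO mouse below every WT mouse. Over all tested genes, 2.67% were called lower and 15.6% had every KO mouse below every WT mouse. The median log2 fold change of the list was -0.54. Its summed level was 5348, 5706 and 6737 CPM in WT4, WT5 and WT6, highest in WT6, and 3342, 3280 and 3380 CPM in KO4, KO5 and KO6. Hsp90aa1, the inducible Hsp90 gene, measured 677, 727 and 956 CPM in WT4, WT5 and WT6 and 385, 344 and 365 CPM in KO4, KO5 and KO6 (log2 fold change -1.11, SE 0.131, BH-adjusted p = 0.0120, edgeR QL test). Its constitutive counterpart Hsp90ab1 was lower as well (log2 fold change -0.87, SE 0.0992, BH-adjusted p = 0.0118, edgeR QL test). Hspa8, the constitutive Hsp70 gene that starts assembly of the complex, fell from 1612 CPM on average to 726 CPM (log2 fold change -1.15, SE 0.105, BH-adjusted p = 0.00665, edgeR QL test). Dnajb1, an Hsp40 gene, had a log2 fold change of -1.12 (SE 0.0754, BH-adjusted p = 0.00466, edgeR QL test), and Stip1, which hands the receptor from Hsp70 to Hsp90, of -1.01 (SE 0.104, BH-adjusted p = 0.00943, edgeR QL test). Ptges3, the p23 co-chaperone gene of the mature complex, had a smaller log2 fold change of -0.48 (SE 0.0904, BH-adjusted p = 0.0309, edgeR QL test). Also called lower were St13, Ahsa1, Hspa4, Ipo13 and Fkbp4, and not called were Ppid, Ppp5c, Cdc37, Bag1 and Stub1, with log2 fold changes from -0.21 to 0.01. Most of these genes belong to the heat shock response too, so the list does not stand for the receptor alone. Without WT5 the test called 0 of the 16, 6 without KO6, and 8 to 10 under each of the other omissions. Over all genes, the calls lower were 1 without WT5, 43 without KO6, 38 without WT6, 110 without WT4, 481 without KO4 and 338 without KO5.

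**Figure D4:**
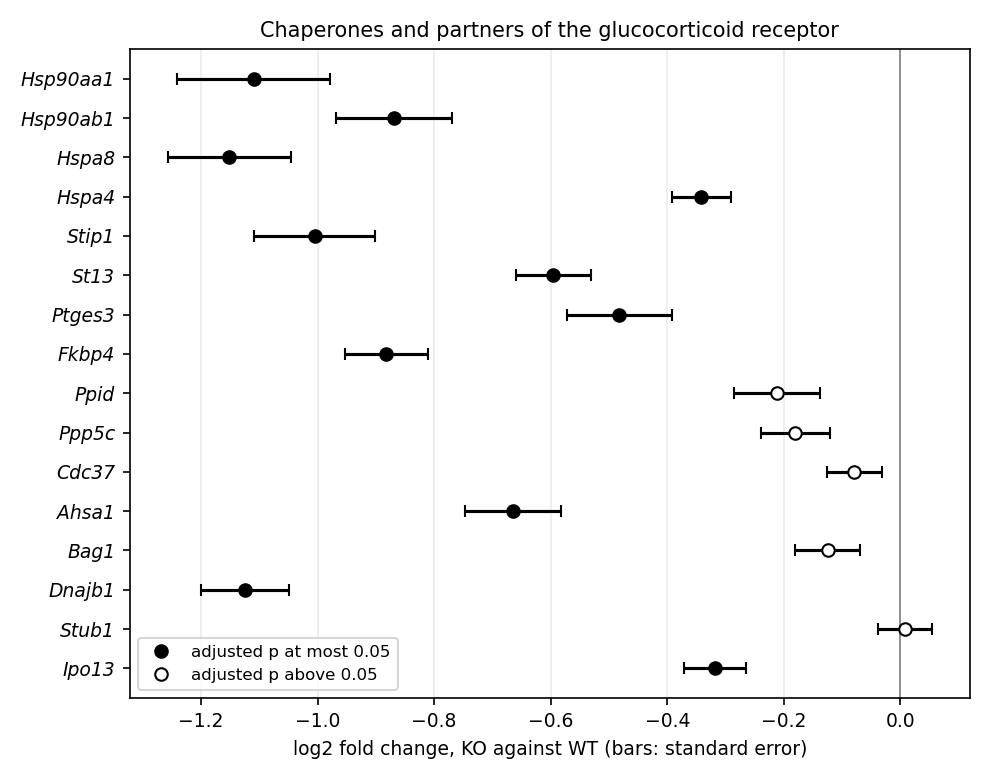
Log2 fold change of KO against WT for 16 chaperones and partners of the receptor, with bars for 1 standard error and filled points for a BH-adjusted p of at most 0.05 in the edgeR QL test. The 11 filled points lie between -1.15 and -0.32, and Stub1 alone lies above 0.

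Coregulators, which the receptor recruits to switch genes on or off, differed little. Of 16 coregulator genes edgeR's QL test called 0, with 2 at an unadjusted p under 0.05 and 0 called by DESeq2 or by edgeR's exact test. Their log2 fold changes lay between -0.21 and 0.17 with a median of 0.02.

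Among 38 further genes known to respond to glucocorticoids, 37 were tested, and 5 were called lower and 2 higher. Over all tested genes, 2.67% were called lower and 3.72% higher. The median log2 fold change of the list was -0.10. Map3k6, a stress kinase gene, had the largest difference of the called genes, at 73.6, 101 and 93.5 CPM in WT4, WT5 and WT6 and 27.6, 44.4 and 41.7 CPM in KO4, KO5 and KO6 (log2 fold change -1.23, SE 0.190, BH-adjusted p = 0.0212, edgeR QL test). Klf15, a metabolic transcription factor gene that the receptor induces directly, stood at 56.0, 70.7 and 72.1 CPM in WT4, WT5 and WT6 and at 41.5, 45.6 and 42.3 CPM in KO4, KO5 and KO6 (log2 fold change -0.62, SE 0.102, BH-adjusted p = 0.0243, edgeR QL test). For both genes WT4 was the lowest WT mouse, as for the response genes above, and the groups did not overlap. Errfi1, a feedback inhibitor gene of the EGF receptor, had a log2 fold change of -0.37 (SE 0.0467, BH-adjusted p = 0.0145, edgeR QL test), Glul, the glutamine synthetase gene, of -0.41 (SE 0.0817, BH-adjusted p = 0.0369, edgeR QL test), and Crispld2 of -0.44 (SE 0.0994, BH-adjusted p = 0.0465, edgeR QL test). The 2 genes called higher were Rgs2, a brake on G protein signals (log2 fold change 0.52, SE 0.116, BH-adjusted p = 0.0457, edgeR QL test), and Txnip, an inhibitor of thioredoxin (log2 fold change 0.39, SE 0.0673, BH-adjusted p = 0.0255, edgeR QL test).

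Other classical targets of the receptor did not pass the test, with log2 fold changes of 0.05 for the clock gene Per1, 0.15 for Ddit4, -0.06 for Mt1, -0.14 for Mt2 and -0.61 for Dusp1 and BH-adjusted p-values between 0.339 and 0.745 in the edgeR QL test. Dusp1, an early response gene, was set by a single mouse, with 281 CPM in WT6 against 87.2 to 135 CPM in the other 5 mice. WT4 was the lowest WT mouse in 24 of these 37 further genes (64.9%), beside 32.5% of all genes tested. The test called 0 genes of this list without WT5, without WT6 or without KO6. Over all genes, the calls higher and lower were then 0 and 1, 25 and 38, and 74 and 43.

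Sodium transport, the epithelial function on which Sgk1 acts, was followed in 6 genes. The edgeR QL test called 0 of them, with 3 at an unadjusted p under 0.05, beside 4347 of the 17037 tested genes. DESeq2 and edgeR's exact test each called 2. Atp1b1, a sodium pump subunit gene, came closest, at 453, 514 and 527 CPM in WT4, WT5 and WT6 and 389, 316 and 396 CPM in KO4, KO5 and KO6 (log2 fold change -0.44, SE 0.103, BH-adjusted p = 0.0517, edgeR QL test). Nedd4l, whose product removes the channel from the membrane and is inhibited by the Sgk1 kinase, had a log2 fold change of -0.29 (SE 0.0755, BH-adjusted p = 0.0691, edgeR QL test). The channel subunit gene Scnn1a stood at 460 to 475 CPM in WT mice and 450 to 527 CPM in KO mice.

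Inflammatory genes that glucocorticoids restrain were followed in a list of 22, of which 20 were tested. The test called 3 of them higher in KO mice and 0 lower, where it called 3.72% of all tested genes higher and 2.67% lower. The median log2 fold change of the list was 0.05. Mmp12, a macrophage elastase gene, measured 4.79, 6.80 and 4.82 CPM in WT4, WT5 and WT6 and 16.6, 12.02 and 13.6 CPM in KO4, KO5 and KO6 (log2 fold change 1.36, SE 0.186, BH-adjusted p = 0.0176, edgeR QL test). The chemokine gene Ccl5 (log2 fold change 0.89, SE 0.156, BH-adjusted p = 0.0268, edgeR QL test) and Nos2, the inducible nitric oxide synthase gene (log2 fold change 0.82, SE 0.152, BH-adjusted p = 0.0303, edgeR QL test), were called as well. Tnf had a log2 fold change of 0.02 (SE 0.379, BH-adjusted p = 0.982, edgeR QL test), and Il6, with 4 to 12 counts per mouse, was too scarce to be tested. No gene of this list was called without WT4, WT5, WT6 or KO6, where the calls higher over all genes were 144, 0, 25 and 74. In the same mice 6 of 7 monocyte genes and 3 of 6 neutrophil genes were called higher. The part of cell numbers in the levels of the inflammatory genes was not tested.

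Several other markers bear on the cell makeup of these lungs. Summed levels of 7 monocyte genes were 1618 to 1664 CPM in WT mice and 1661 to 1974 CPM in KO mice, sums carried by Ace (1448 CPM on average in WT and 1462 CPM in KO mice), the gene of the list that was not called. The 6 called monocyte genes had log2 fold changes from 0.57 (Csf1r) to 2.02 (Cd300e). Summed levels in WT and KO mice of 6 neutrophil genes were 52.5 to 87.9 and 137 to 159 CPM, and those of 7 alveolar macrophage genes, with Marco called higher, were 496 to 742 and 568 to 759 CPM. Of the epithelial and endothelial lists, 1 of 6 type 1 alveolar genes (Rtkn2) and 1 of 7 endothelial genes (Cldn5) were called lower. Over all tested genes, 2.67% were called lower. The edgeR QL test called 0 of 8 type 2 alveolar, 7 fibroblast, 5 smooth muscle, 6 adipocyte, 7 atrial muscle, 7 B cell and 6 T cell genes. At an unadjusted p under 0.05 in the edgeR QL test these lists held 2, 1, 4, 2, 0, 7 and 5 genes. DESeq2 called 2, 1, 3, 0, 0, 6 and 3, and edgeR's exact test called 0, 0, 1, 1, 0, 7 and 1. Over all 17037 tested genes, 4347 had an unadjusted p under 0.05, DESeq2 called 1913 and the exact test called 1486. Summed levels in WT and KO mice were 2553 to 2834 and 2413 to 2936 CPM for fibroblast genes, 76.7 to 174 and 87.4 to 151 CPM for adipocyte genes, and 39.3 to 43.8 and 44.6 to 116 CPM for T cell genes. No marker of these lists was at or under 3 counts in all mice. Immediate early genes, which rise with stress and handling, were 0 of 10 called in the edgeR QL test (4 at an unadjusted p under 0.05, 1 called by DESeq2, 0 by edgeR's exact test), and their sum was 801, 874 and 1536 CPM in WT4, WT5 and WT6 and 889, 711 and 791 CPM in KO4, KO5 and KO6. WT6 stood apart in them, and it was also the highest WT mouse for Fkbp5, Tsc22d3, Klf9, Hif3a, Cdkn1a and the sum of the receptor partners, though not for Sgk1 or Zbtb16. Its lead over WT5 was slight for Fkbp5 (88.2 against 87.6 CPM) and wider for Tsc22d3 (362 against 300.4 CPM). The part of handling in these levels was not tested.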

How the data were processed

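Lung RNA of 3 WT and 3 Zpbp2 KO mice was sequenced from stranded mRNA libraries. According to the submitters' processing notes and the paper's methods, the authors trimmed reads (Trimmomatic 0.36), aligned them to GRCm38 (STAR 2.5.3a), handled alignments with Picard 2.9.0, counted them per gene (HTSeq 0.6.0) and deposited raw counts without normalization. The annotation release and strand setting are not given in the sources used here.

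Counts were tested in R 4.3.3 with edgeR 4.0.16 (glmQLFit, glmQLFTest) after TMM scaling and filterByExpr (minimum count 10, total 15), BH-adjusted over 17037 genes, without covariates. All CPM values use TMM-scaled library sizes, and log2 CPM values add 0.5 counts. SE is the absolute log2 fold change divided by the square root of F. The p-values of the edgeR QL test set the difference between the groups against the spread between these mice, estimated with information shared across genes. Replicates differed beyond counting noise. The fit was tested on simulated data. Positions and exon lengths come from GENCODE mouse release 21, promoters from RefSeq (GRCm38.p6, 250 bases before to 50 after each start).

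The genes, 7 pathway and handling lists and 12 marker lists were chosen with earlier results of these data known. The text names all 10 genes, the called genes of pathway lists (at most the 8 with the lowest adjusted p) and a few fixed genes, besides Zpbp2. Ptges3, Hspa4, Ipo13, the uncalled chaperones, H6pd, Abcb1a, Atp1b1, Nedd4l, Scnn1a, Gm10649, Ace, Csf1r, Cd300e, Marco, Rtkn2, Cldn5 and Xist fall outside this rule and were named after their values were seen. Alternatives were DESeq2 1.42.0, edgeR's exact test, other size factors and filters, a replicate block and leaving out each mouse. Python 3.11.15 read the promoters, and Matplotlib 3.10.9 drew the plots.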

Additional observations from a re-analysis of the deposited data

How the results depend on the processing

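The log2 fold change of each of the 10 genes kept its sign in the 6 fits that left out a mouse and in the 7 other alternatives. DESeq2 called 1102 genes higher and 811 lower in KO mice, against 634 and 455 in the edgeR QL test, and edgeR's exact test called 942 higher and 544 lower. With DESeq2, with edgeR's exact test and with no filter the genes called lower among the 10 were 4, with Tsc22d3 added. The stricter rule with the fold threshold left 0 of the 10 in either direction.

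Mice with the same number did not deviate together (correlations across tested genes of -0.0294, -0.149 and -0.0219 for numbers 4, 5 and 6), and 0 of 3 correlated best with their own number. With 3 mice in each group, this check cannot settle whether the numbers pair them. With the replicate number as a block, 30 genes were called higher and 36 lower. Among the 10 genes 0 were then called higher and 2 lower (Fkbp5 and Cdkn1a). The block left 4 receptor partners called lower, 1 further response gene lower and 1 higher, and 0 inflammatory genes.

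Leaving out 1 mouse at a time gave 0 to 797 genes called higher and 1 to 481 called lower, 0 to 1 of the 10 genes higher and 0 to 3 lower, 0 to 10 receptor partners lower, 0 to 5 further response genes lower and 0 to 3 higher, 0 to 2 inflammatory genes higher, 0 to 2 sodium transport genes lower and 0 to 1 steroid supply gene higher. The lowest counts over all genes came without WT5, and the cause was not tested.

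No filter gave 8 further response genes lower and 2 sodium transport genes lower. Sodium transport genes called lower were 1 with at least 10 counts in every library, 2 with DESeq2 and 2 with the exact test. DESeq2 and the exact test each called 1 steroid supply gene higher, and the exact test called 8 further response genes lower. DESeq2 called 5 inflammatory genes higher and 1 immediate early gene lower. Where no cause is shown, the cause was not tested. Depth limited what could be said of Zpbp2, with 0 to 2 counts per mouse, and of Il6, with 4 to 12.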
